A study of Mus musculus with 3 samples.

Results

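The CC chemokines are small secreted proteins that direct the movement of leukocytes. The 9 genes described here are the ligands Ccl2, Ccl7, Ccl11, Ccl8, Ccl9, Ccl3, Ccl4 and Ccl19 and the receptor Ccr2. They were taken by name from the count tables, and each of the 9 had a row in every table, among 16095 genes with rows in all of them. The cells came from sciatic nerve of adult mice, dissociated with collagenase and trypsin and profiled by Drop-seq, which tags each captured transcript with a unique molecular identifier (UMI). An injured library of Wildtype CD1 mice and an injured library of CD1 and C57BL/6 mice were made from the distal nerve segment 9 days after resection. Cells of the first passed over myelin removal beads and cells of the second were sorted by FACS, by a gate not described in the labels. The uninjured library, from nerve of Wildtype CD1 mice and also cleaned with beads, is represented by the cells that its authors predicted to be mesenchymal. Whether animals were pooled is not stated, and isolation and strain differed between the injured libraries. With 1 library a group, injury and library cannot be told apart and no test between groups was possible, and every interval below is a 95% interval for counting error alone.

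CC chemokines signal through receptors on the surface of leukocytes and are held on endothelium and matrix, where they form gradients. Ccl2 and Ccl7 are the main ligands of Ccr2, the receptor that inflammatory monocytes use to leave marrow and enter tissue, and in an injured nerve monocyte-derived macrophages clear myelin debris. Ccl11 (eotaxin) attracts eosinophils through Ccr3, mouse Ccl8 acts on Ccr8, Ccl9 and Ccl3 act on Ccr1, and Ccl19 acts on Ccr7.

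Of the 9 genes, 7 lie on chromosome 11, in 2 groups of neighbours. On GRCm38, the assembly that mm10 names, the GENCODE vM21 annotation places protein-coding Ccl2 at chr11:82035571-82037453, Ccl7 at chr11:82045712-82047525, Ccl11 at chr11:82057823-82062955 and Ccl8 at chr11:82115185-82116799, all on the plus strand within 81229 bases. Ccl9 (chr11:83572919-83578636, minus strand), Ccl3 (chr11:83647844-83649355, minus strand) and Ccl4 (chr11:83662584-83664683, plus strand) lie within 91765 bases. Ccl19 is at chr4:42754525-42756577 on the minus strand and Ccr2 at chr9:124101950-124113557 on the plus strand. RefSeq promoters on GRCm38.p6 were at hand for 5 of the 9 genes. Those of Ccl9, Ccl8 and Ccl3 are shown, since these are the members on chromosome 11 with an entry, with motif matches in capitals (250 bases up to the RefSeq start, 5' to 3' on the gene's strand).

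Ccl9, chr11:83578637-83578886, minus strand: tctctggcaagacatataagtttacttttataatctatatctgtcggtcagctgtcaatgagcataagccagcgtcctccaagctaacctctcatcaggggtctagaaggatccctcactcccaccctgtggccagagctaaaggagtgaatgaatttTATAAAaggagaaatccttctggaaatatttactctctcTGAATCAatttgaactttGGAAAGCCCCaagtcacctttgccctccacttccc

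Ccl8, chr11:82114935-82115184, plus strand: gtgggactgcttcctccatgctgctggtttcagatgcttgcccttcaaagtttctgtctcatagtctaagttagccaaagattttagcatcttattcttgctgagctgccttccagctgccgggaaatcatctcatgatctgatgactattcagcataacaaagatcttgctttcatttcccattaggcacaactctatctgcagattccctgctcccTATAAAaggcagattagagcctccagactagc

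Ccl3, chr11:83649379-83649628, minus strand: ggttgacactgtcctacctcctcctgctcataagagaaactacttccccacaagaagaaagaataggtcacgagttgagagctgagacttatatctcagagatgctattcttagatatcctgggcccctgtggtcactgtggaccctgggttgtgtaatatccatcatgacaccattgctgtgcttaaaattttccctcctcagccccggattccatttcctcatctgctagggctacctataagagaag

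The searched motifs were NF-kB, AP-1 (TGANTCA), CEBP (TTGCNNAA), STAT (TTCNNNGAA) and PU.1 (GAGGAAGT) on both strands, and the letters TATAAA, named TATA from here on, on the gene's strand only. Among 32817 promoters of this length, 7.25% held the NF-kB motif, 6.75% AP-1, 9.57% CEBP, 7.01% STAT, 2.44% PU.1 and 7.60% TATA. The Ccl9 promoter held an NF-kB match at -35 to -26, counted from the base before the start, an AP-1 match at -53 to -47 and a TATA match at -92 to -87, with no overlap between them. The Ccl8 promoter held a TATA match at -32 to -27, and none of these letters was found in the Ccl3 window. A match describes the sequence and shows no binding.

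The injured beads table held 4300 barcodes (median 1343 UMIs) and the FACS library 2000 barcodes (median 2356.5 UMIs), of which 4111 and 1914 with at least 200 genes were used. The authors' mesenchymal tables held 1289 injured cells (median 2798 UMIs), all of them also in the beads table, and 880 uninjured cells (median 2102.5). The 2 injured libraries shared 1 cell barcode. Cells were clustered with every CC gene left out and clusters were named by markers, so that the values below did not set the classes. The beads library gave 9 named classes and the FACS library 6, which lacked T/NK-like, B-like and pericyte or smooth muscle-like classes. The FACS endothelial-like cluster was led by Rgs5, a pericyte gene. Levels are UMIs of a gene summed over a class per 1000000 UMIs of that class (CPM), with the exact Poisson interval in parentheses.

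Ccl2, Ccl7 and Ccl11 were found mainly in mesenchymal-like cells, the fibroblast-like cells of the nerve sheaths and endoneurium. These cells held 85.5% of the Ccl2 UMIs, 86.3% of the Ccl7 UMIs and 86.7% of the Ccl11 UMIs of the beads library while making up 23.6% of its cells. In the FACS library the shares were 74.5%, 71.3% and 90.2%, from 29.3% of the cells. The highest level of Ccl2 and Ccl7 was nevertheless in the few mast-like cells.

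Ccl2 reached 2067 CPM (1708 to 2479) in the 36 mast-like cells of the beads library and 1456 CPM (1419.5 to 1492) in its 969 mesenchymal-like cells. Among FACS cells it stood at 2640.4 CPM (2214 to 3125) in 20 mast-like cells and 599 CPM (575 to 624) in 561 mesenchymal-like cells. The mast-like and mesenchymal-like intervals did not overlap in either library, although the ratio was under 2-fold in the beads library (log2 0.51, interval 0.23 to 0.77) and above 4-fold in the FACS library (log2 2.14, interval 1.88 to 2.39). Pericyte or smooth muscle-like cells (174 CPM, 142 to 211) and phagocyte-like cells (155 CPM in beads, 258 in FACS) came next, and in the beads library each class from there down overlapped its neighbour in the order. Ccl2 was detected in 28 of 36 cells (77.8%) of the mast-like class, in 336 of 969 cells (34.7%) of the mesenchymal-like class, in 42 of 463 cells (9.07%) of the Schwann-like class and in 9 of 389 cells (2.31%) of the B-like class, which is not known to make it. After every cell was thinned to 1000 UMIs, the shares were 62.1%, 24.0%, 4.80% and 1.54%, with median depths before thinning of 1548, 3792, 2224 and 763 UMIs.

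Ccl7 had the same order. It stood at 1051 CPM (800.2 to 1356) in mast-like and 704 CPM (679 to 729.9) in mesenchymal-like cells of the beads library, and at 4811 CPM (4229 to 5452) and 455 CPM (434 to 477) in the FACS library. The 20 FACS mast-like cells, 1.04% of the cells, held 9.89% of the Ccl7 UMIs of that library, and a UMI was present in 14 of them against 10 of the 36 in the beads library. Ccl7 and Ccl2 were found together in 12 of the FACS mast-like cells, 60.0% against 56.0% for the product of the 2 shares. Phagocyte-like cells differed between the libraries, with 40.8 CPM (28.4 to 56.8) in beads and 171 CPM (153 to 189.9) in FACS, intervals that did not overlap. In Schwann-like cells Ccl7 was at 18.7 and 33.0 CPM.

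Ccl11 was held by mesenchymal-like and by pericyte or smooth muscle-like cells. It measured 813 CPM (786 to 841) in mesenchymal-like cells and 298 CPM (256 to 345) in pericyte or smooth muscle-like cells of the beads library, and at most 30.3 CPM in each other named class. FACS mesenchymal-like cells had 509.7 CPM (488 to 533), and the next class, the 16 neutrophil-like cells, rested on 1 UMI. A Ccl11 UMI was seen in 420 of 969 cells (43.3%) of the mesenchymal-like class and 84 of 277 cells (30.3%) of the pericyte or smooth muscle-like class, 29.3% and 16.9% after thinning, against 5.18% of Schwann-like cells (3.30% thinned). None was found in the 36 mast-like cells of the beads library, where 0 UMIs allow up to 53.4 CPM (3 counts).

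Ccl8 and Ccl9 were divided between phagocyte-like and mesenchymal-like cells. Phagocyte-like cells held 41.3% of the Ccl8 UMIs in beads and 84.8% in FACS, and mesenchymal-like cells 47.5% and 10.7%. Of the Ccl9 UMIs, phagocyte-like cells held 11.9% and 44.2%, and mesenchymal-like cells 80.1% and 52.1%. By level, Ccl8 was highest in phagocyte-like cells of both libraries, at 176 CPM (149 to 207) in beads and 1191 CPM (1144 to 1240.3) in FACS. In the 169 beads phagocyte-like cells with fewer than 2 UMIs of each other class's markers, Ccl8 was at 58.8 CPM. It was at 0 UMIs in the T/NK-like, mast-like, neutrophil-like and Schwann-like cells of the beads library. Few cells carried most of it: the 10% of FACS phagocyte-like cells with the most Ccl8 held 90.0% of its UMIs in that class, and 1 cell had 166. In beads, 1 phagocyte-like cell held 80 of the 151 Ccl8 UMIs of its class. A Ccl8 UMI was present there in 28 of 507 phagocyte-like cells and in 96 of 969 mesenchymal-like cells. In FACS mesenchymal-like cells the share with a Ccl8 UMI was 29.8% but 5.26% after thinning, against 7.69% in 65 Schwann-like cells, and so not above that reference class (median depths 6251 and 2605 UMIs). By summed level they were above it, at 76.5 CPM (68.0 to 85.7) against 36.7 CPM (17.6 to 67.5), with no overlap. The mesenchymal-like cells of that library also held 249 CPM of the macrophage genes C1qa, C1qb and C1qc, against 21.7 CPM in beads.

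Ccl9 stood at 731 CPM (706 to 757) in mesenchymal-like and 539 CPM (491 to 591) in phagocyte-like cells of the beads library. The FACS library had the other order, with 493 CPM (462 to 525) in phagocyte-like and 297 CPM (280.3 to 315) in mesenchymal-like cells. Neither pair of intervals overlapped, and both ratios were under 2-fold. In the 352 beads mesenchymal-like cells with fewer than 2 UMIs of each other class's markers, Ccl9 was at 435 CPM. Ccl9 UMIs were present in 31.8% of phagocyte-like cells (28.5% thinned) and 26.7% of mesenchymal-like cells (18.8% thinned) of the beads library, and in 4.10% of Schwann-like cells (2.70% thinned).

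Ccl3 and Ccl4, known as macrophage inflammatory proteins, were highest in neutrophil-like cells. Ccl3 measured 4877 CPM (4421 to 5367) in 124 neutrophil-like cells of the beads library and 6352 CPM (4823 to 8211) in 16 of the FACS library. Phagocyte-like cells followed at 245 CPM (213 to 281) and 457 CPM (427 to 487). Ccl4 gave 7228 CPM (6670.4 to 7819) and 9309 CPM (7436 to 11511) in neutrophil-like and 285 CPM (250.1 to 323) and 403 CPM (376 to 432) in phagocyte-like cells. Neutrophil-like cells lay above the next class with no overlap, by log2 ratios of 4.31 for Ccl3 and 4.67 for Ccl4 in beads and of 3.80 and 4.53 in FACS. The FACS Ccl4 value rested on few cells: 5 of the 16 had a Ccl4 UMI, and 1 cell held 46 of the 85. The 2 cells with the most Ccl4 held 83.5% of its UMIs there, a spread that the counting interval does not cover.

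Most Ccl3 and Ccl4 transcripts came from different classes in the 2 libraries. Neutrophil-like cells held 56.4% of the Ccl3 and 62.8% of the Ccl4 UMIs of the beads library (3.02% of cells), while phagocyte-like cells held 85.0% and 81.4% in the FACS library (39.1% of cells). A Ccl3 UMI was found in 58 of 124 cells (46.8%) of the beads neutrophil-like class at a median depth of 594 UMIs, and a Ccl4 UMI in 47 of 124 cells (37.9%), against 2.16% and 1.08% of Schwann-like cells. Ccl3 and Ccl4 occurred together in 35 of the 124 cells (28.2%, against 17.7% for the product of the shares). In FACS mesenchymal-like cells the shares of 12.1% for Ccl3 and 10.9% for Ccl4 dropped to 1.13% and 2.63% after thinning, beside 4.62% and 0% in Schwann-like cells, so that the Ccl3 share was not above that of Schwann-like cells. With a minimum of 500 genes per cell no cluster was named neutrophil-like. In the beads library 98 cells led by S100a9, S100a8, Ngp and Camp then stayed unnamed, with Ccl3 at 712 CPM and Ccl4 at 964 CPM, and the highest named class was phagocyte-like, at 211 CPM for Ccl3 and 201 CPM for Ccl4.

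Ccl19, a ligand that guides T cells and dendritic cells in lymph nodes, was nearly absent from the injured libraries, with 12 UMIs in beads and 24 in FACS. No named class exceeded 6.69 CPM, a pericyte or smooth muscle-like value that rested on 4 UMIs. Of the 24 FACS UMIs, 15 were in unnamed cells, among them an unnamed cluster of 124 cells led by Car3, Cfd, Inmt, Adipoq and Gdf10 (38.0 CPM in 11 cells). The annotation also holds the pseudogene copies Ccl19-ps1 and Ccl19-ps3, and how reads shared with them were counted is not given in the sources used here, so the Ccl19 values are uncertain.

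Ccr2 was found mainly in 2 leukocyte classes. Phagocyte-like cells had 1142 CPM (1072 to 1216) in beads and 597 CPM (564 to 632) in FACS, and T/NK-like cells had 668 CPM (574 to 774) in beads. Ccr2 UMIs were seen in 228 of 507 cells (45.0%) of the phagocyte-like and 64 of 210 cells (30.5%) of the T/NK-like class, 44.5% and 30.4% after thinning. Schwann-like cells had 0.648% (0.3% thinned) and mesenchymal-like cells 1.65% (0.576% thinned), and the 4 median depths were 1074, 868, 2224 and 3792 UMIs. Without cells that held 2 or more UMIs of another class's markers, phagocyte-like cells had 2111 CPM in beads (169 of 507 cells) and 949 CPM in FACS (150 of 748 cells). The 2 leukocyte classes held 81.1% and 14.7% of the Ccr2 UMIs of the beads library. Neutrophil-like and mast-like cells had 0 Ccr2 UMIs in both libraries, and the FACS endothelial-like value of 67.7 CPM came from 2 cells.

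A gene was counted as having 1 leading class where its highest class reached 50 CPM and at least 2 times the next, with an interval that excluded equality. Ccl3, Ccl4, Ccl8 and Ccl11 met this in the beads library, 4 of the 8 members with 50 CPM, where 25.1% of 7994 genes did. The FACS library had 6 of 8 (Ccl2, Ccl3, Ccl4, Ccl7, Ccl8 and Ccr2), where 23.9% of 7090 genes did. The FACS call of Ccl8 rested on a next class, neutrophil-like cells, with 1 UMI. The FACS call of Ccr2 was made with no T/NK-like class to compare, and its next class was endothelial-like at 67.7 CPM. In beads T/NK-like cells came next at 668 CPM, and Ccr2 was not called. In the beads call of Ccl8, 1 phagocyte-like cell held 80 of the 151 UMIs of the leading class. After thinning to 1000 UMIs, 7 members met the rule in the beads library. The class with the highest level was the same in both libraries for 7 of these 8 members, Ccl9 being the exception.

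**Figure D1:**
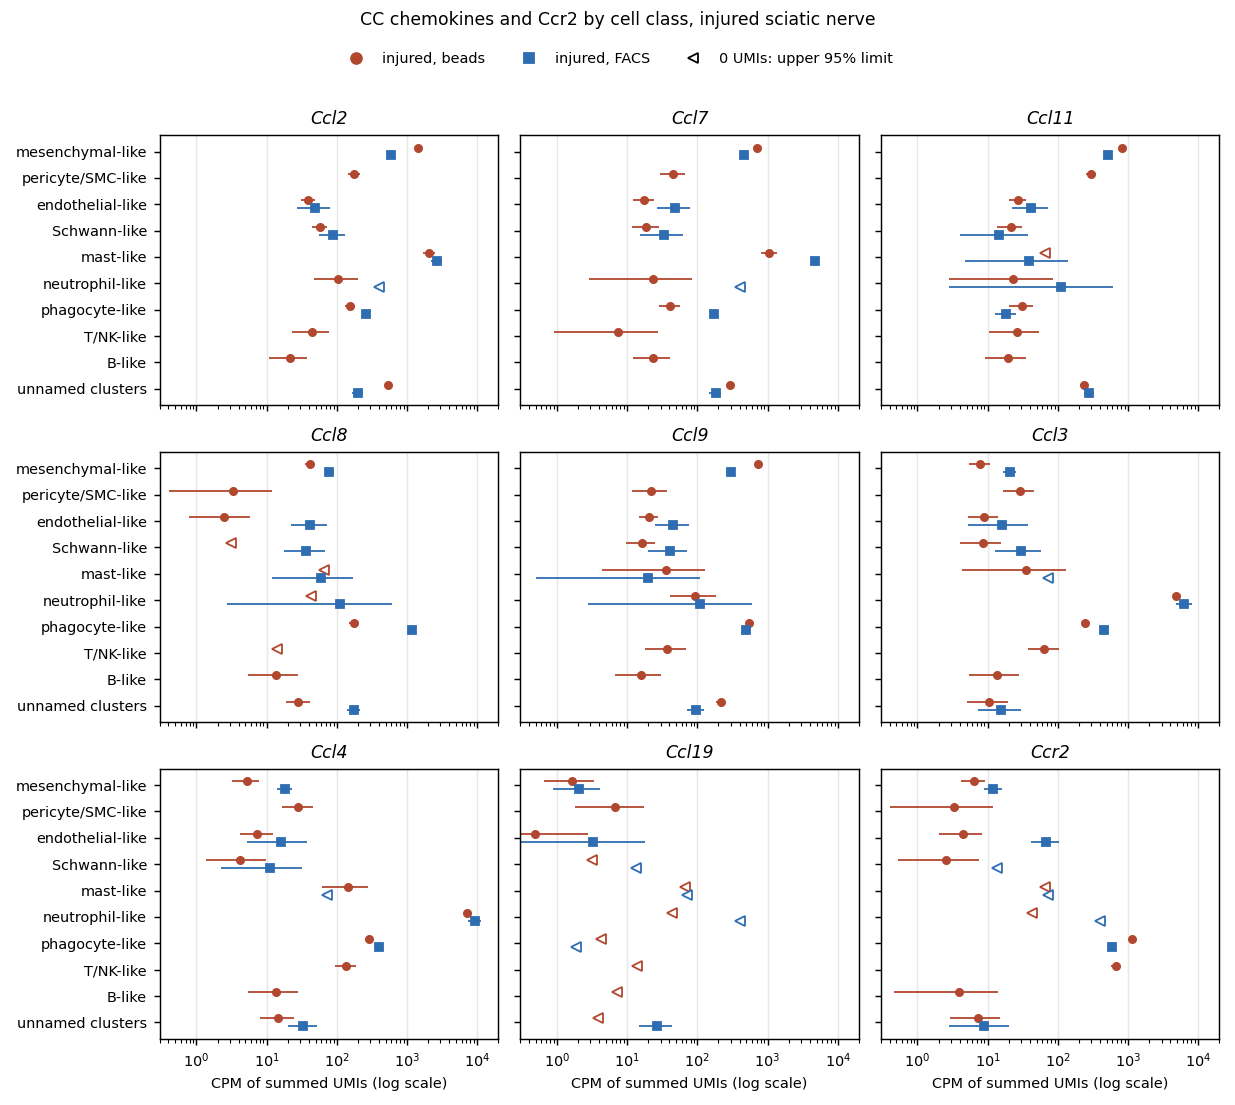
Level of each of the 9 genes (CPM of summed UMIs, log axis) in each cell class of the injured beads library (circles) and the injured FACS library (squares), with exact Poisson 95% intervals for counting error; open triangles are upper limits for classes with 0 UMIs and some intervals run past the left edge. Ccl2, Ccl7 and Ccl11 sit high in mesenchymal-like cells, Ccl2 and Ccl7 also in mast-like cells, Ccl3 and Ccl4 in neutrophil-like cells, Ccl8 and Ccr2 in phagocyte-like cells, and Ccl9 in both mesenchymal-like and phagocyte-like cells.

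Clustering the phagocyte-like cells by themselves separated the members further. Ccr2 was highest in clusters led by monocyte genes or by Cd72. In the beads library it measured 2758 (2448 to 3096) CPM in a cluster of 97 cells led by Ly6c2 and Retnla and 2969 (2719 to 3236) CPM in a cluster of 150 cells led by Cd72, against 179 (139 to 226) CPM in 111 cells led by Elane and Mpo and also marked by Gpnmb and Fabp3. In the FACS library it measured 2254 (2080.1 to 2439.6) CPM in 175 cells led by Retnla, Ly6c2 and Plac8, and 73.8 (56.1 to 95.5) CPM in 157 cells marked by Fabp5 and Gpnmb, genes of lipid-loaded macrophages. The dendritic-like clusters, with Cd209a and Flt3 or Btla among their leading genes, stood between at 1076 CPM in beads and 1024 CPM in FACS. High Ccr2 did not set monocyte-like clusters apart from C1q-expressing ones. C1qa, C1qb and C1qc summed to 307 CPM in the beads Ly6c2 cluster and 5424 CPM in the Cd72 cluster, which was named C1q macrophage-like. They summed to 8729 CPM in the FACS Retnla cluster, left unnamed with marker scores of 2.37 for monocytes and 2.11 for C1q macrophages. All these clusters came from the same cells whose genes they sum, so their differences are a description.

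Ccl8 and Ccl9 were highest in other clusters than Ccr2. The FACS cluster of 134 cells led by Cd163, Cbr2 and Pf4, genes of resident-type macrophages, held Ccl8 at 4833 (4590.2 to 5084) CPM, present in 78 cells, and Ccr2 at 227 CPM. The next FACS cluster for Ccl8 reached 932 CPM. In the beads library no cluster was led by those genes, and Ccl8 was at most 414 (277 to 594) CPM. Ccl9 was highest in small clusters led by Mmp12 and Mmp9 in FACS (1714 CPM, 1537 to 1906, present in 41 of 52 cells) and by Arg1, Nos2 and Inhba, with Mmp9 and Mmp12 among the leading genes, in beads (1989.7 CPM, 1695 to 2321 in 25 cells). In those clusters Ccl8 was at 15.1 CPM and at 0.

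Within single phagocyte-like cells, the share with both Ccr2 and Ccl8 was below the product of their shares and that with both Ccr2 and Ccl9 above it, a description of cells of 1 library each with no test. Ccr2 and Ccl8 occurred together in 6 of 507 beads cells (1.18% against 2.48%) and in 50 of 748 FACS cells (6.68% against 8.86%). Ccr2 and Ccl9 occurred together in 20.9% against 14.3% and in 17.4% against 13.2%. Ccl3 and Ccl4 shared 121 FACS cells (16.2% against 10.8%).

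**Figure D2:**
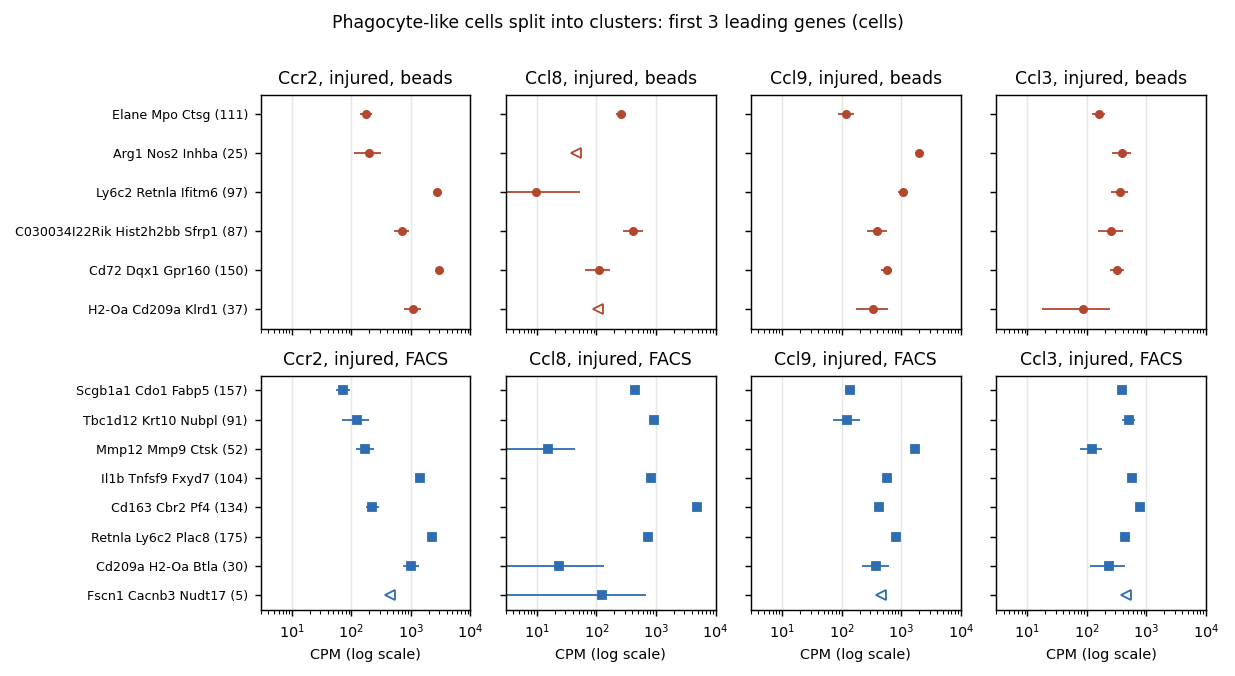
Level of Ccr2, Ccl8, Ccl9 and Ccl3 (CPM, log axis) in each cluster of phagocyte-like cells of the beads library (top) and the FACS library (bottom), each cluster given by its first 3 leading genes and its number of cells, with exact Poisson 95% intervals that may run past the left edge and open triangles as upper limits for 0 UMIs. Ccl8 is highest in the FACS cluster led by Cd163, Ccl9 in the clusters led by Mmp12 and by Arg1, and Ccr2 in clusters led by Ly6c2, Retnla or Cd72.

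The levels of other family members place receptors beside these ligands. Ccr1, a receptor of Ccl3 and Ccl9, was highest in neutrophil-like cells (1629 CPM in beads, 876 in FACS). Ccr7, the Ccl19 receptor, was at 323 CPM in T/NK-like and 281 CPM in B-like cells. Ccr3 had no row in the beads table and 1 UMI in FACS phagocyte-like cells, and Ccr8 had 3 UMIs, all in beads T/NK-like cells, and no row in the FACS table. Ackr1, an atypical receptor that carries chemokines across vessel walls, was highest in endothelial-like cells (758 and 393 CPM).

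Of 28 further CC ligands and receptors, 24 had rows in the beads table, 17 in the FACS table and 15 in the uninjured table. A leading class was found for 8 of 9 with 50 CPM in beads and 6 of 7 in FACS. Besides those above they included the ligands Ccl1 (67.6 CPM) and Ccl5 (1791 CPM) in T/NK-like cells, Ccl6 (1394 CPM) in phagocyte-like cells of the beads library and in neutrophil-like cells of the FACS library (2628 CPM), and Ccl12 (132 CPM) in FACS phagocyte-like cells. Ccl5 in FACS phagocyte-like cells (109 CPM) had no single leading class. The receptor Ccr6 was highest in B-like cells (142 CPM) and the atypical receptor Ccrl2 in neutrophil-like cells (7169.5 and 5695 CPM). None of the 28 reached 50 CPM in the injured or uninjured mesenchymal pools.

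Genes with the most similar pattern were sought among 3680 genes by the Pearson correlation of log2(CPM + 10) over the 15 class pools of both injured libraries, which share depth and clustering within a library. Ccl2 and Ccl7 were each other's closest (r = 0.95), followed by Fam46a (r = 0.90) and Asph (r = 0.89) for Ccl2 and by Plau (r = 0.90) and Ecm1 (r = 0.90) for Ccl7. Ccl3 and Ccl4 were likewise closest to each other (r = 0.98), followed by Cxcl2 (r = 0.97) and Adam8 (r = 0.97) for Ccl3 and by Ccr1 (r = 0.98) and Adam8 (r = 0.97) for Ccl4. Ccl8 was closest to C1qa (r = 0.91), C1qc (r = 0.91) and Trem2 (r = 0.90), and Ccl9 to Lrp1 (r = 0.93), Spp1 (r = 0.90) and Ctsb (r = 0.85). Ccl11 was closest to C1s (r = 0.96), Fbn1 (r = 0.94) and Cygb (r = 0.93), and Ccr2 to Ms4a6c (r = 0.85), Aprt (r = 0.84) and Smpdl3a (r = 0.83). C1qa, C1qc and Ms4a6c were among the markers that named the phagocyte-like class.

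The injured and uninjured mesenchymal cells were compared next. A gene was called higher or lower where either pool held 50 CPM and the levels differed by 2-fold or more, with an interval that excluded equality (the rule of size). Against the 880 uninjured cells, the 1289 injured cells of the beads library had higher Ccl2, Ccl9 and Ccl7, 3 of the 4 members with 50 CPM, and none lower. Over the 3964 genes with 50 CPM, 8.17% were higher and 7.14% lower. Ccl9 went from 59.0 (49.2 to 70.2) CPM in uninjured to 669 (646 to 693) CPM in injured cells, a log2 ratio of 3.50 (3.25 to 3.77). Ccl11 went the other way, from 1044 (1001 to 1088) to 735 (711 to 759.7) CPM, but the log2 ratio of -0.51 (-0.58 to -0.43) was short of 2-fold. The Ccl7 ratio of 1.04 (0.92 to 1.16) lost its call under 6 of the alternatives run, with log2 ratios of 0.53 to 0.95. The median log2 ratio of the 4 members was 2.27, beside 0.20 over all genes with 50 CPM.

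The members below 50 CPM gave values without a call. Ccl8 was at 17.1 CPM in uninjured and 42.1 CPM in injured cells (log2 ratio 1.30, 0.79 to 1.85), and Ccl19 at 15.7 and 1.47 CPM (log2 ratio -3.41, -4.83 to -2.21). Ccl3 had 0 UMIs in uninjured and 40 in injured cells, 6.09-fold higher with the 0 set to 3 counts (lower limit of the log2 ratio 2.24). Ccl4 had 1 and 38 UMIs (log2 ratio 4.12, 1.55 to 9.46) and Ccr2 3 and 30 (log2 ratio 2.19, 0.51 to 4.55). Leukocyte genes were also higher in the injured pool: all 12 phagocyte markers were detected and summed to 465 CPM against 39.6 CPM in uninjured cells, where 2 of the 12 were at 0, and the neutrophil markers summed to 55.2 against 3.23 CPM. Their part in the Ccl3, Ccl4, Ccl8 and Ccr2 values was not tested.

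The FACS mesenchymal-like cells were set against the same 880 uninjured cells, so the 2 comparisons share their control, and injury, strain and isolation cannot be told apart in the second. Ccl2 stood at 109 CPM in uninjured and 599 CPM in FACS cells, Ccl7 at 318 and 455, Ccl9 at 59.0 and 297, Ccl8 at 17.1 and 76.5, and Ccl11 at 1044 and 509.7 CPM. Ccl2 (log2 ratio 2.45, 2.26 to 2.65), Ccl9 (2.33, 2.06 to 2.60) and Ccl8 (2.16, 1.66 to 2.69) were higher and Ccl11 (-1.04, -1.13 to -0.95) lower, 3 and 1 of the 5 members with 50 CPM, where 11.9% of 3990 genes were higher and 9.07% lower. Ccl7 did not reach 2-fold (0.51, 0.38 to 0.64). Of the subclasses described next, endoneurial-like and epineurial-like cells were also given the same weight in both pools, with all other cells left out. Ccl7 was then past 2-fold (log2 ratio 1.22) and Ccl11 short of it (-0.19), with no interval computed. The phagocyte markers summed to 1591 CPM in this pool and C1qa, C1qb and C1qc to 249 CPM. As given above, the share of these cells with a Ccl8 UMI was not above that of Schwann-like cells at equal depth, while their summed Ccl8 level was. The part of phagocyte RNA in the Ccl8 value was not tested. In the 33 of 561 cells that held fewer than 2 UMIs of the markers of each other class, Ccl9 was lower than in uninjured cells (log2 ratio -1.53) and Ccl2 still higher (2.17). That filter counts UMIs, so deeper cells are more readily left out. In beads it kept 57 of 248 endoneurial-like cells, against 574 of 1289 mesenchymal cells. The part of depth and subclass mix in the Ccl9 reversal was not tested.

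These totals mix subclasses in which the same genes differed widely. Mesenchymal cells were clustered within each table and named by markers as endoneurial-like (Etv1, Osr2, Wif1), epineurial-like (Pcolce2, Dpp4, Pi16), perineurial-like (Itgb4, Slc2a1, Msln) or differentiating-like (Dlk1, Mest, Tnc). In the injured beads cells, Ccl2 stood at 3291 CPM (3205 to 3379) in 248 endoneurial-like cells, 225 in 507 differentiating-like, 66.1 in 75 perineurial-like and 50.7 in 191 epineurial-like cells. Ccl7 followed with 1435 CPM (1378 to 1493), 248, 51.9 and 33.0 CPM in the same order, and Ccl9 with 1744 CPM (1682 to 1809), 44.1, 9.44 and 15.2 CPM. The endoneurial-like level was above each other named subclass with no overlap for all 3 genes, while the perineurial-like and epineurial-like intervals overlapped. A further 268 injured cells with a median of 540.5 UMIs, led by the leukocyte genes H2-Aa and Cd74 and by Hbb-bs, stayed unnamed and held 16 of the 30 Ccr2, 7 of the 40 Ccl3 and 21 of the 38 Ccl4 UMIs of the injured cells.

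Ccl11 had a second subclass. It measured 1760.3 CPM (1697 to 1825) in endoneurial-like and 439 CPM (376 to 509) in epineurial-like cells, 109 in perineurial-like and 103 CPM in differentiating-like cells. Within the epineurial-like cells it was 602 (508 to 708) CPM in 127 cells led by Cxcl13, Smpd3 and Pcsk6 and 178 (117 to 259) CPM in 64 cells led by Inmt, Comp and Fmod. Among 132 differentiating-like cells led by Dlk1 and Nov, Ccl7 reached 510.2 (454 to 572) CPM, against 128 (109 to 149) CPM in 311 such cells led by Tnc and Cilp.

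**Figure D3:**
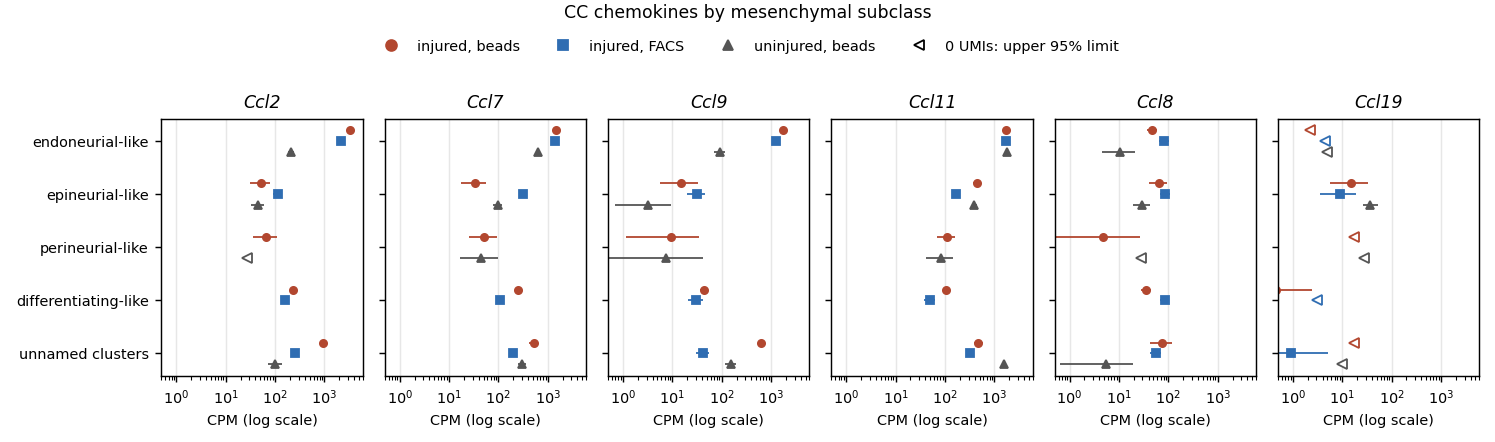
Level of 6 ligands (CPM, log axis) in the mesenchymal subclasses of the injured beads cells (circles), the injured FACS cells (squares) and the uninjured cells (triangles), with exact Poisson 95% intervals that may run past the left edge and open triangles as upper limits for 0 UMIs. In endoneurial-like cells Ccl2 and Ccl9 are far lower in uninjured than in injured cells, Ccl7 is lower by a smaller step, and the 3 Ccl11 values lie together at 1722 to 1764 CPM.

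Ccl2, Ccl9 and Ccl7 were higher in injured than in uninjured endoneurial-like cells, the fibroblast-like cells among the nerve fibres. Ccl2 was at 211 CPM (179.5 to 247) in 234 uninjured, 3291 CPM (3205 to 3379) in 248 injured beads and 2135 CPM (2037 to 2236) in 88 injured FACS cells, log2 ratios of 3.96 (3.73 to 4.20) and 3.33 (3.10 to 3.58). Ccl9 was at 90.9 CPM (70.6 to 115), 1744 CPM (1682 to 1809) and 1261 CPM (1186 to 1339), log2 ratios of 4.26 (3.92 to 4.63) and 3.79 (3.43 to 4.17). Ccl7 was at 644 CPM (588 to 704), 1435 CPM (1378 to 1493) and 1418 CPM (1338 to 1501), log2 ratios of 1.16 (1.01 to 1.30) and 1.13 (0.98 to 1.29). For each gene both injured intervals lay above the uninjured interval, and the Ccl7 step was the smallest of the 3. The Ccl7 call of the beads library was lost after thinning (0.89), with the mean over cells (0.86) and in the 57 injured and 110 uninjured cells that held fewer than 2 UMIs of the markers of each other class (0.54), where Ccl2 (3.93) and Ccl9 (3.94) were still called. Phagocyte markers summed to 50.8 CPM in uninjured (5 of 12 at 0), 345 in injured beads and 1224 CPM in FACS endoneurial-like cells, with none of the 12 at 0 in the injured groups. Their part in the FACS values was not tested.

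The level of Ccl11 from summed counts did not differ beyond counting error in these cells. It stood at 1764 CPM (1670.3 to 1862) in uninjured, 1760.3 CPM (1697 to 1825) in injured beads and 1722 CPM (1634 to 1814) in injured FACS endoneurial-like cells, log2 ratios of -0.0031 (-0.10 to 0.09) and -0.04 (-0.15 to 0.07), with intervals that include equality. At equal depth the mean Ccl11 count per cell was lower in both injured groups than in uninjured cells. After thinning it was 1.94 UMIs in uninjured, 1.64 in injured beads and 1.51 in injured FACS cells. These means are given without an interval, and the reason for their difference from the summed levels was not tested. Endoneurial-like cells were 234 of 880 uninjured, 248 of 1289 injured beads and 88 of 561 FACS cells. Ccl8 had 8 uninjured UMIs (10.7 CPM, 4.62 to 21.1), 47.0 CPM (37.2 to 58.6) in injured beads and 82.7 CPM (64.3 to 105) in FACS cells. By the rule of size 3 of 4 members were higher and 0 lower in the beads library, where 11.4% of 3717 genes were higher and 9.5% lower. Among FACS cells 4 of 5 were higher, Ccl8 included, and 0 lower, where 14% of 3778 genes were higher and 11.6% lower.

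**Figure D4:**
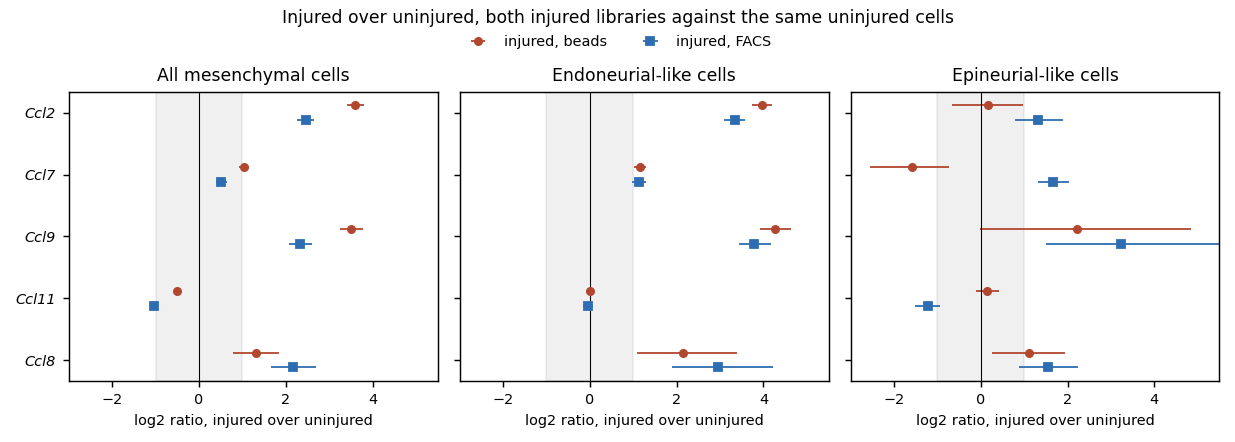
Log2 ratio of injured to uninjured level of 5 ligands in all mesenchymal, endoneurial-like and epineurial-like cells, for the beads library (circles) and the FACS library (squares) against the same uninjured cells, with 95% conditional binomial intervals for counting error (one Ccl9 interval runs past the right edge) and ratios under 2-fold shaded. In endoneurial-like cells Ccl2 and Ccl9 lie between 3.33 and 4.26, Ccl7 at 1.16 and 1.13, and Ccl11 at equality, while Ccl7 in epineurial-like cells lies at -1.58 in the beads library and 1.67 in the FACS library.

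The share of endoneurial-like cells with a UMI of Ccl2, Ccl9 or Ccl7 was higher in both injured groups than in the uninjured group. Ccl2 was found in 45 of 234 cells (19.2%) of the uninjured, 215 of 248 cells (86.7%) of the injured beads and 81 of 88 cells (92.0%) of the FACS group, 12.4%, 70.1% and 63.2% after thinning to 1000 UMIs. For Ccl9 the shares were 16.7%, 82.3% and 75.0% (10.2%, 57.4% and 47.1% thinned), and for Ccl7 43.2%, 85.9% and 89.8% (23.6%, 58.6% and 58.6% thinned). Ccl11 was found in 219 of 234, 233 of 248 and 87 of 88 cells (74.2%, 70.5% and 70.1% thinned). In uninjured epineurial-like cells, a mesenchymal comparison with little of these genes, the thinned shares were 2.16% for Ccl2, 0.617% for Ccl9 and 3.09% for Ccl7. Median depths were 2991, 6327 and 9200.5 UMIs in the endoneurial-like groups and 2077 in the uninjured epineurial-like cells.

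At equal depth the amount per cell differed as well. After thinning, 20 of 244 injured beads cells held 10 or more Ccl2 UMIs against 1 of 225 uninjured cells, and the highest Ccl9 count was 10 in injured beads and 2 in uninjured cells. Uninjured Ccl7 was uneven: 172 of 225 cells had no Ccl7 UMI and 4 had 10 or more, whereas no injured beads cell reached 10. Without thinning, the 10% of uninjured endoneurial-like cells with the most Ccl7 held 62.7% of the Ccl7 UMIs, against 45.4% in injured beads cells. All 4 of Ccl2, Ccl7, Ccl9 and Ccl11 were found together in 170 of 248 injured beads cells (68.5%), 56 of 88 FACS cells (63.6%) and 10 of 234 uninjured cells (4.27%), at the depths above. In uninjured cells Ccl2 and Ccl7 met in 15.4% of cells, against 8.30% for the product of the shares.

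**Figure D5:**
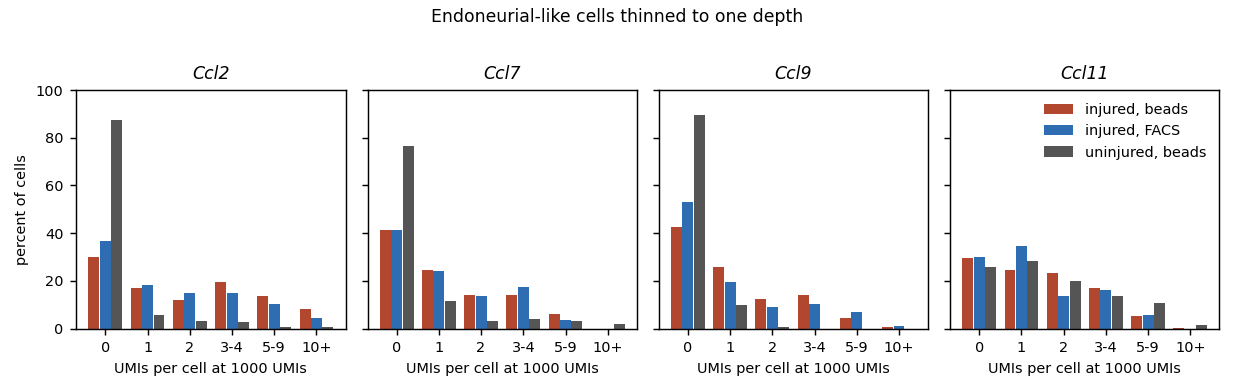
Percent of endoneurial-like cells (bars, axis from 0) by the number of UMIs of Ccl2, Ccl7, Ccl9 and Ccl11 per cell after thinning each cell to 1000 UMIs, in 244 injured beads, 87 injured FACS and 225 uninjured cells. Most uninjured cells have 0 UMIs of Ccl2 (87.6%) and Ccl9 (89.8%), while 25.8% to 29.9% of the cells of each group have 0 UMIs of Ccl11.

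The uninjured endoneurial-like cluster differed from the injured ones in another respect. Its leading genes included Cxcl1, Nfkbiz, Irf1 and Btg2, and 12 immediate early genes such as Fos, Jun and Egr1 summed to 56068 CPM in it, against 15218 in injured beads and 16208 CPM in FACS cells. The part of that difference in the chemokine values was not tested. A further 204 uninjured cells, unnamed but scoring highest for endoneurial markers, had an immediate early sum of 22780 CPM with Ccl2 at 99.7 CPM (70.2 to 137), Ccl7 at 302, Ccl9 at 151 and Ccl11 at 1542 CPM. With these cells added to the uninjured side, the log2 ratios were 4.24 for Ccl2, 1.43 for Ccl7, 3.98 for Ccl9 and 0.06 for Ccl11.

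A list of 17 genes linked to NF-kB, cytokine and interferon signalling gives the setting of these values. In endoneurial-like cells 7 of the 10 with 50 CPM passed the rule as higher in the injured beads library and 1 as lower. Their median log2 ratio was 1.16, against 0.07 over all genes with 50 CPM. Among them, the cytokine receptors Il1r1 (3.23, 2.53 to 4.02), Il13ra1 (1.75, 1.06 to 2.53) and Tnfrsf1a (1.16, 0.82 to 1.51), the NF-kB inhibitors Tnfaip3 (2.84, 1.93 to 3.93) and Nfkbia (1.25, 1.09 to 1.41) and the cytokine Il6 (1.16, 0.68 to 1.67) were higher, and the interferon regulatory factor Irf1 was lower (-2.24, -2.55 to -1.94). In the FACS cells 4 of 8 were higher (Il1r1, Il13ra1, Tnfrsf1a and Tnfaip3) and Irf1 lower. Irf1 was among the leading genes of the uninjured cluster.

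In cells named epineurial-like, after the outer sheath, the Ccl7 and Ccl11 ratios to uninjured cells were not alike in the 2 injured libraries. Ccl2 stood at 44.8 CPM (32.1 to 60.8) in uninjured, 50.7 CPM (31.0 to 78.3) in injured beads and 113 CPM (90.8 to 139.5) in FACS cells, and the beads interval overlapped the uninjured one. The 41 uninjured Ccl2 UMIs lay in 10 of 381 cells, with 20 in 1 cell, and 1 FACS cell held 28 of 88. Ccl7 was at 98.3 CPM (79.1 to 121), 33.0 CPM (17.5 to 56.4) and 315 CPM (277 to 357), lower than uninjured in beads (log2 ratio -1.58, -2.54 to -0.73) and higher in FACS (1.67, 1.32 to 2.04). A single uninjured cell held 36 of the 90 uninjured Ccl7 UMIs. Ccl9 stayed under 50 CPM, with 3 uninjured, 6 beads and 24 FACS UMIs. The FACS epineurial-like group consisted of 66 cells led by Tnmd, Egfl6 and Prlr, with Ccl7 at 484 (424 to 550.4) CPM, and 64 cells led by Pcolce2 and Dpp4, with 37.4 (18.7 to 67.0) CPM. The 66 cells shared the leading genes Prlr, Angptl1 and Dlk1 with 132 injured beads cells that were named differentiating-like. The epineurial-like groups of the 2 libraries are therefore not the same set of clusters. The part of this in the opposite Ccl7 ratios was not tested.

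Ccl8 was higher in epineurial-like cells of both injured libraries (log2 ratios 1.10, 0.26 to 1.94 and 1.54, 0.88 to 2.24), on 27 uninjured, 25 beads and 67 FACS UMIs. The phagocyte markers summed to 36.1, 363 and 1336 CPM in the same groups (3, 0 and 0 of the 12 at 0), and their part in the Ccl8 values was not tested. Ccl11 was near equality in beads (0.15, -0.12 to 0.42) and lower in FACS (-1.22, -1.52 to -0.93). By the rule of size 1 of 4 members was higher and 1 lower in the beads library (4.44% and 2.31% of 3850 genes), and 3 of 4 were higher and 1 lower in FACS (9.18% and 6.71% of 3845 genes). In perineurial-like cells Ccl2 had 14 UMIs in 75 injured and 0 in 61 uninjured cells. It was 2.97-fold higher with the 0 set to 3 counts (lower limit of the log2 ratio 1.08). It was 1 of 3 members called (5.53% of 4812 genes were higher and 7.83% lower). Ccl7 (log2 ratio 0.22, -1.34 to 1.94) and Ccl11 (0.41, -0.68 to 1.59) did not differ beyond counting error there. FACS cells formed no perineurial-like class.

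Ccl19 was the member found mainly in uninjured epineurial-like cells. Its 34 uninjured UMIs were all in that subclass (37.1 CPM, 25.7 to 51.9), in 28 of its 381 cells, and 27 were in 151 cells led by Cxcl14, C4b and Adh1 (76.0 CPM). In injured cells the epineurial-like values were 15.2 CPM (5.58 to 33.1) on 6 UMIs in beads and 9.01 CPM (3.62 to 18.6) on 7 UMIs in FACS. The uninjured interval overlapped the injured beads interval and not the FACS interval, and Ccl19 stayed below 50 CPM in these pools. Unnamed cells, which are outside the FACS subclasses, held 15 of the 24 Ccl19 UMIs of the FACS library. They include the cluster of 124 cells with the epineurial markers Gdf10, Comp and Pcolce2 among its leading genes. The part of this omission in the lower FACS value was not tested. Ccr2 had at most 1 UMI in any uninjured subclass.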

How the data were processed

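The deposited tables hold counts, the whole numbers of UMIs per gene and cell that the authors obtained by Drop-seq, with mm10 named in the submitters' processing notes; the aligner was not given in the sources used here, nor was the counting program. Cells with at least 200 genes were kept (the authors' mesenchymal tables were used whole), normalised, and clustered with scanpy 1.11.5 under Python 3.11.15 (2000 variable genes, 30 principal components, 15 neighbours, Leiden resolution 0.8), with all CC genes left out. No doublet caller was applied. Clusters were named from marker lists by a score: the log2 ratio of (CPM + 10) to the lower quartile over all clusters, averaged over the list. It had to reach 1 and to lead that of the next list by 1 (0.5 for subclasses). That scoring rule was set after the data were seen. Older symbols of 5 genes in the count tables were replaced by the current names used here.

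Counts were summed per class and library and expressed as CPM with exact Poisson intervals, shares with exact binomial (Clopper-Pearson) intervals and ratios with conditional binomial intervals, at 95%, from scipy 1.17.1. With 1 library per group there were no p-values. A count of 0 was read against a floor of 3 counts. UMIs carry amplification correction, yet intervals and floors cover counting error only. Thinning drew 1000 UMIs from each cell and left out shallower cells. The script was tested on simulated data. edgeR 4.0.16 (TMM) and DESeq2 1.42.0 gave alternative scaling factors only. All 9 genes are named in every comparison; other CC genes are named at 50 CPM in a named class, and 3 genes of like pattern per member. The members and lists were chosen with earlier results of these data known. Alternatives covered scaling, the CPM minimum, thinning, cell filters, clustering resolution and weighting. Some genes of the context lists are not reported here.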

Additional observations from a re-analysis of the deposited data

Results flagged for a closer look

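Ccl7 moved in opposite directions after injury in 2 mesenchymal subclasses of the beads library. Its log2 ratio of injured to uninjured level was 1.16 in endoneurial-like cells and -1.58 in epineurial-like cells. Each group is 1 library, so this difference between subclasses was not tested. The epineurial-like value rests on 13 injured and 90 uninjured UMIs, 36 of them in 1 cell, and FACS epineurial-like cells gave 1.67 against the same uninjured cells. The groups held different clusters: Ccl7 was at 484 CPM in 66 FACS cells led by Tnmd, Egfl6 and Prlr and at 37.4 CPM in 64 led by Pcolce2 and Dpp4, beside 33.0 CPM in the injured beads and 98.3 CPM in the uninjured epineurial-like cells.

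Barcodes with fewer than 200 genes entered no comparison and still held member UMIs, above the floor of 3 counts. In the beads library 265 of the 73565 UMIs of 189 such barcodes came from the 9 genes, and in the FACS library 57 of the 19896 UMIs of 86 barcodes.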

How the results depend on the processing

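In the beads comparison of all mesenchymal cells, 3 members were higher and 0 lower. A minimum of 10 CPM gave 1 lower (Ccl19), and no minimum gave 7 higher and 1 lower. In the FACS comparison, with 3 higher and 1 lower, both a minimum of 10 CPM and no minimum gave 6 higher and 2 lower. Leaving out cells with markers of other classes, which kept 33 of 561 FACS cells, gave 1 higher, with Ccl9 reversed at -1.53 and Ccl8 short of the rule at 1.03. This filter also changes depth and subclass mix. Giving endoneurial-like and epineurial-like cells the same weight, with other cells left out, left 0 lower. In beads the same weights also covered perineurial-like cells. Readings from weights and from the mean over cells used the rule of size without its interval. Thinning to 1000 UMIs gave 7 members with 1 leading class in the beads library in place of 4.

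The Ccl7 call of the beads comparison over all mesenchymal cells was lost with TMM factors (0.91), DESeq2 factors (0.92), without cells holding other markers (0.57), after thinning (0.53), with the mean over cells (0.66) and at the same subclass weights (0.95). Scaling by TMM or DESeq2 factors moved all ratios by -0.13 and -0.12 on the log2 scale, and by under 0.1 in endoneurial-like cells. Counts over all genes higher and lower moved from 324 and 283 to 991 and 675 (10 CPM), 1407 and 1094 (no minimum) and 176 and 175 (same weights) in beads, and from 475 and 362 to 1193 and 902, 1640 and 1366, and 780 and 194 (without cells with other markers) in FACS; in endoneurial-like cells they moved from 423 and 353 to 1029 and 851 (10 CPM) and 1067 and 942 (no minimum). Of all values other than counts of members, these all-gene counts included, 208 kept their reading, 61 moved, 19 gained a call, 11 lost one and 1 reversed. A value moved where a level left its counting interval, its highest class changed, or an all-gene count changed past a set fold. The cause of these shifts was not tested.

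Without cells holding other classes' markers, a member's level in its highest class was computed where 100 cells stayed (352 of 969 beads mesenchymal-like, 169 of 507 beads and 150 of 748 FACS phagocyte-like cells), and the 7 values so obtained moved. No order of classes was computed there, as 2 of 20 FACS mast-like and 7 of 124 beads neutrophil-like cells stayed. With 500 genes per cell no cluster was named neutrophil-like, 98 beads cells led by S100a9 and S100a8 stayed unnamed, and the highest named class was phagocyte-like (495 CPM of Ccl3 and 448 of Ccl4 in FACS). Levels resting on few UMIs (Ccl19, the FACS neutrophil-like class, the 20 and 36 mast-like cells) are limited by depth. No paired analysis was possible because each group is 1 library.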
